A study of Mus musculus with 12 samples.

Results

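The genes described here are 39 known targets of the transcription factor p53, of 24421 genes in the table. The rule names direct targets by symbol and leaves aside the central apoptosis genes, the inhibitors of cyclin-dependent kinases and the genes that feed back on p53. RNA was sequenced from mouse embryonic fibroblasts (MEFs) in 12 libraries, 3 in each of 4 groups, to ask how cells with and without the transcription factors TFEB and TFE3 respond to DNA damage. WT MEFs, which the sample labels call Null, are an SV40-immortalized line, and DKO MEFs carry CRISPR edits made to inactivate Tfeb and Tfe3. Each genotype was kept either untreated or in 100 µM etoposide for 8 hr, a drug that traps topoisomerase II on cut DNA. Each genotype is represented by 1 line, so the editing and other differences between the lines cannot be told apart. SV40 immortalization can alter p53 itself. The study's methods describe the controls as given DMSO, while the labels describe them as untreated. The labels do not say whether the 3 libraries of a group came from separate cultures, and p-values measure only the spread between these libraries.

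p53 is held low in unstressed cells by the ubiquitin ligase Mdm2. When DNA breaks, damage kinases release it from Mdm2 and it binds paired decamers in the DNA near its targets. Its targets arrest the cell cycle, repair DNA, shift metabolism or lead to cell death, and in fibroblasts arrest is a common outcome.

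The smallest library held 45577023 counts on genes and the largest 104120871. Levels are CPM, a gene's counts scaled to a common library size after TMM normalization, and changes are log2 fold changes ± SE from the edgeR quasi-likelihood fit over 15220 genes, with n = 3 libraries per group. The SE is derived from the test statistic and can be too small where a group has few counts. A gene is called higher or lower where the Benjamini-Hochberg adjusted p is under 0.05. Bulk RNA does not tell fewer cells with a transcript from less of it per cell. The edited genes are described first. Tfeb stood at 38.9, 39.2 and 42.1 CPM in untreated WT MEFs and at 4.60, 6.09 and 4.68 CPM in untreated DKO MEFs. After etoposide it was at 11.4, 10.2 and 10.4 CPM in WT and 1.92, 1.61 and 2.20 CPM in DKO MEFs. The DKO libraries lay below the WT libraries at each condition, with log2 fold changes of -2.94 ± 0.09, adjusted p = 1.05e-14 untreated and -2.46 ± 0.12, adjusted p = 5.06e-12 after etoposide. Tfe3 was at 115, 109.9 and 114 CPM in untreated WT and 94.1, 93.1 and 91.0 CPM in untreated DKO MEFs, and at 68.5, 69.6 and 68.1 and 70.7, 71.2 and 63.4 CPM after etoposide. Its transcript was thus still counted in DKO MEFs, lower without etoposide (-0.29 ± 0.04, adjusted p = 8.68e-06) and overlapping with WT after it (-0.01 ± 0.04, adjusted p = 0.872). Counts per gene do not show whether a transcript encodes protein.

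The fibroblast identity was checked against markers. Vim was the most abundant of the 12 by group mean in 3 groups and Fn1 in etoposide-treated DKO MEFs. Their summed level was 7092, 7085 and 7191 CPM in untreated WT and 11530, 12120 and 11590 CPM in untreated DKO MEFs, and 4053, 3964 and 3958 and 5243, 5337 and 5013 CPM after etoposide. By call, 10 of the 12 were higher and 1 lower in untreated DKO than WT MEFs, 9 and 2 after etoposide, and etoposide lowered 9 in WT and 10 in DKO MEFs. For this and the following lists, 33.3% of all genes were higher and 33.4% lower in untreated DKO MEFs, and 37.5% and 36.6% after etoposide. Etoposide raised 42.3% of all genes in WT and 43.7% in DKO MEFs, and lowered 37.2% and 31.5%. The interaction was lower for 24.4% of all genes. The fibroblast marker lower in untreated DKO MEFs, Thy1, was near 0 in DKO MEFs, at 0.0365 CPM untreated and 0.129 CPM after etoposide, against 4.21 and 2.12 CPM in WT. After etoposide Vim was also lower, at 801 CPM in DKO against 1632 CPM in WT MEFs. Dcn, Lum and Fap were low throughout, at or under 2.72, 0.837 and 0.151 CPM in every group mean. Dcn and Lum are among the 10 higher in untreated DKO MEFs. Etoposide raised Fap in DKO MEFs (log2 fold change 2.56). The 6 macrophage markers, led by Cd14, had higher sums after etoposide in both genotypes, at 17.8, 19.3 and 16.1 CPM in untreated WT, 9.31, 7.88 and 7.55 in untreated DKO, 78.1, 77.6 and 77.5 in etoposide-treated WT and 14.7, 12.3 and 14.9 in etoposide-treated DKO MEFs. Of the 5 tested, 5 were higher after etoposide in WT and 4 in DKO MEFs, 2 were lower in DKO than WT MEFs after etoposide, and 3 had a lower interaction. The defining members Ptprc, which rose in both genotypes, and Adgre1, not tested, were at or under 0.366 CPM in every group mean. The 6 epithelial markers, with Krt8 or Cdh1 the most abundant by group mean, summed to 2.68, 2.26 and 2.87 CPM in untreated WT, 5.10, 5.05 and 5.94 in untreated DKO, 3.32, 3.87 and 4.10 in etoposide-treated WT and 2.57, 2.02 and 2.17 in etoposide-treated DKO MEFs. Etoposide raised 3 and lowered 1 of them in WT, raised 4 and lowered 1 in DKO MEFs, and 4 were lower in DKO than WT MEFs after etoposide. The 6 endothelial markers, at or under 2.32 CPM each in every group mean, summed to 0.270, 0.154 and 0.232 CPM in untreated WT, 0.211, 0.0652 and 0.184 in untreated DKO, 5.27, 5.02 and 4.61 in etoposide-treated WT and 2.02, 1.60 and 1.48 in etoposide-treated DKO MEFs. Of the 5 tested, 5 were higher after etoposide in each genotype, and 3 were lower in DKO than WT MEFs after etoposide. The 4 ribosomal and structural RNAs, mostly Rn45s, summed to 39710, 47520 and 47430 CPM in untreated WT, 36310, 37880 and 32570 in untreated DKO, 64000, 59020 and 62220 in etoposide-treated WT and 44530, 49830 and 43400 in etoposide-treated DKO MEFs. Etoposide raised 3 of these 4 in WT and 1 in DKO MEFs, and 3 were lower in DKO than WT MEFs at each condition. The part of any of these in the results was not tested.

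All 39 p53 targets passed the filter on low counts and were tested. In WT MEFs etoposide raised 33 of them and lowered 5, where 42.3% of all genes were higher and 37.2% lower. Of the 33, 30 rose at least 2-fold, a level reached by 22.4% of all genes. The median log2 fold change of the targets was 2.05, and that of all genes tested was 0.07. In DKO MEFs 28 targets were higher and 6 lower, against 43.7% and 31.5% of all genes. There 14 rose at least 2-fold (17.9% of all genes), and the median log2 fold change was 0.87 against 0.14 over all genes. The interaction, which is the DKO response minus the WT response, was lower for 30 targets and higher for 2, against 24.4% and 29.6% of all genes. For 19 targets it was lower by at least 2-fold, as for 8.41% of all genes. The median interaction was -1.02 for the targets and 0.05 for all genes.

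Across the 39 targets the responses in WT and DKO MEFs, which come from separate libraries, had a Pearson r of 0.908 and a Spearman rho of 0.850. The points are genes measured in the same libraries and are not replicates. The change was smaller in size in DKO MEFs for 36 of the 39, all but Bhlhe40, Epha2 and Sco2, and for 56.2% of all genes. By direction, 28 targets rose in both genotypes, and 24 of these had a lower interaction, where 30.5% of all genes rose in both and 8.13% did so with a lower interaction. Bhlhe40, Pvt1, Plk3 and Epha2 fell in both. Steap3 and Plk2 rose in WT and fell in DKO MEFs. Fbxw7, Prkab1 and Rap2b rose in WT MEFs with no call in DKO MEFs, Tigar fell in WT MEFs with no call in DKO MEFs, and Sco2 was called in neither. The interaction was past the threshold for Fbxw7, Rap2b and Tigar but not for Prkab1 (adjusted p = 0.0850) or Sco2 (adjusted p = 0.262).

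**Figure D1:**
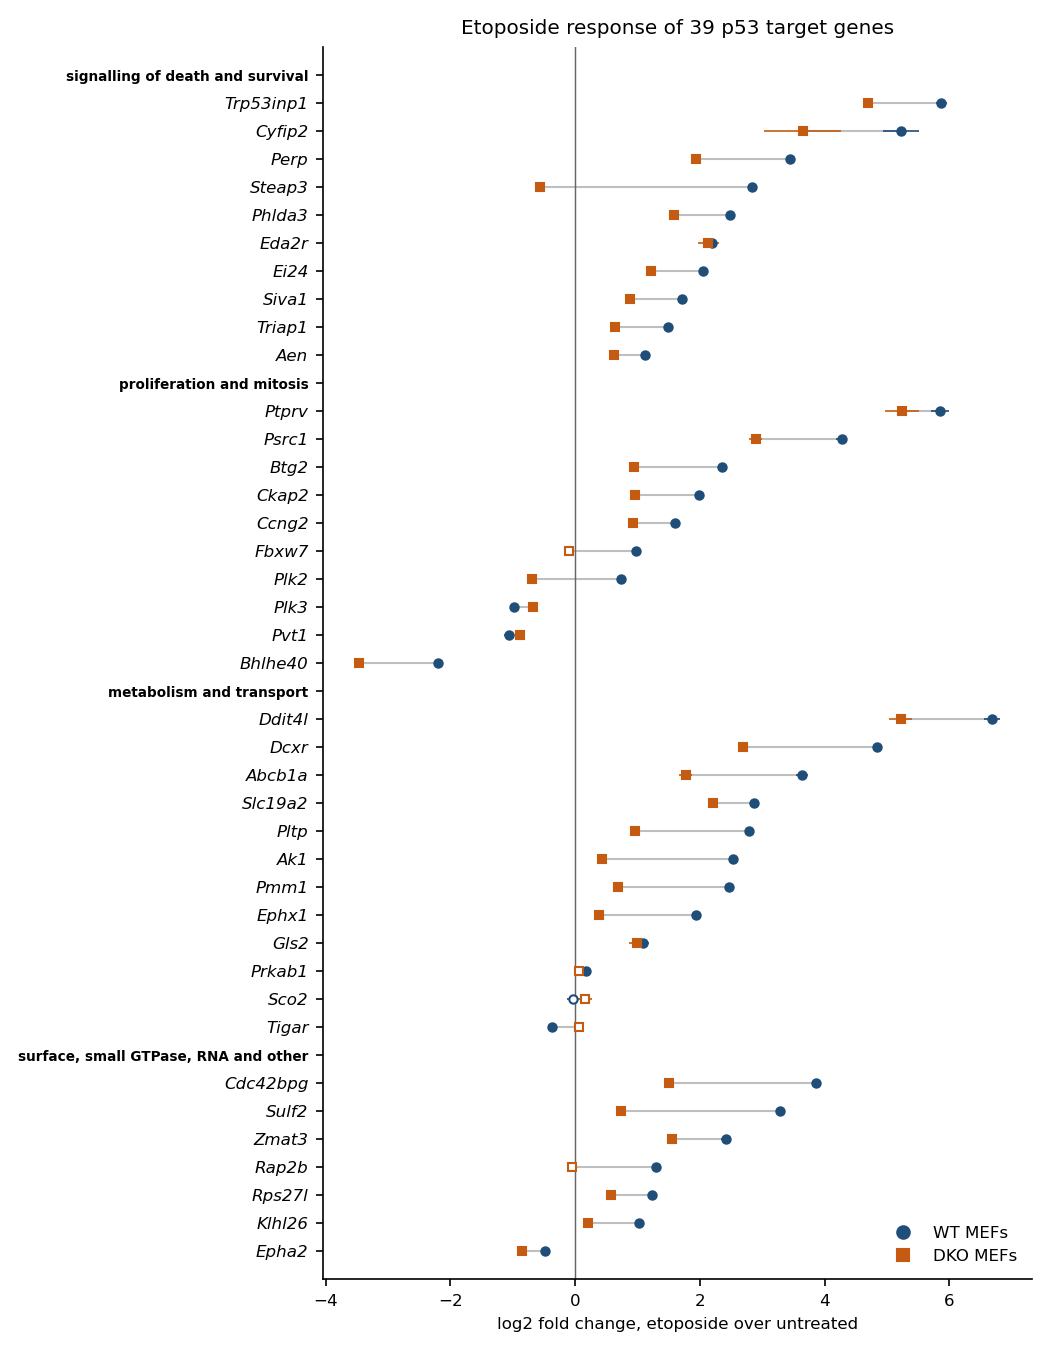
Log2 fold change (etoposide over untreated, ± SE, 3 libraries per group) of each p53 target gene in WT MEFs (blue circles) and DKO MEFs (orange squares), grouped by role, filled where the adjusted p is under 0.05 and open otherwise. Orange squares lie nearer 0 than blue circles for 36 of the 39 genes.

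Without etoposide the DKO level was higher than WT for 14 targets and lower for 16, against 33.3% and 33.4% of all genes. The median log2 fold change was -0.10, with -0.02 over all genes. After etoposide 35 targets were lower in DKO MEFs and 2 higher, against 36.6% and 37.5% of all genes. Of these 22 were lower by at least 2-fold, as were 17% of all genes, and the median was -1.30 against -0.00. The count of 2 higher targets, Tigar and Plk3, falls to 1 without any 1 of 5 libraries, because Plk3 loses its call.

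**Figure D2:**
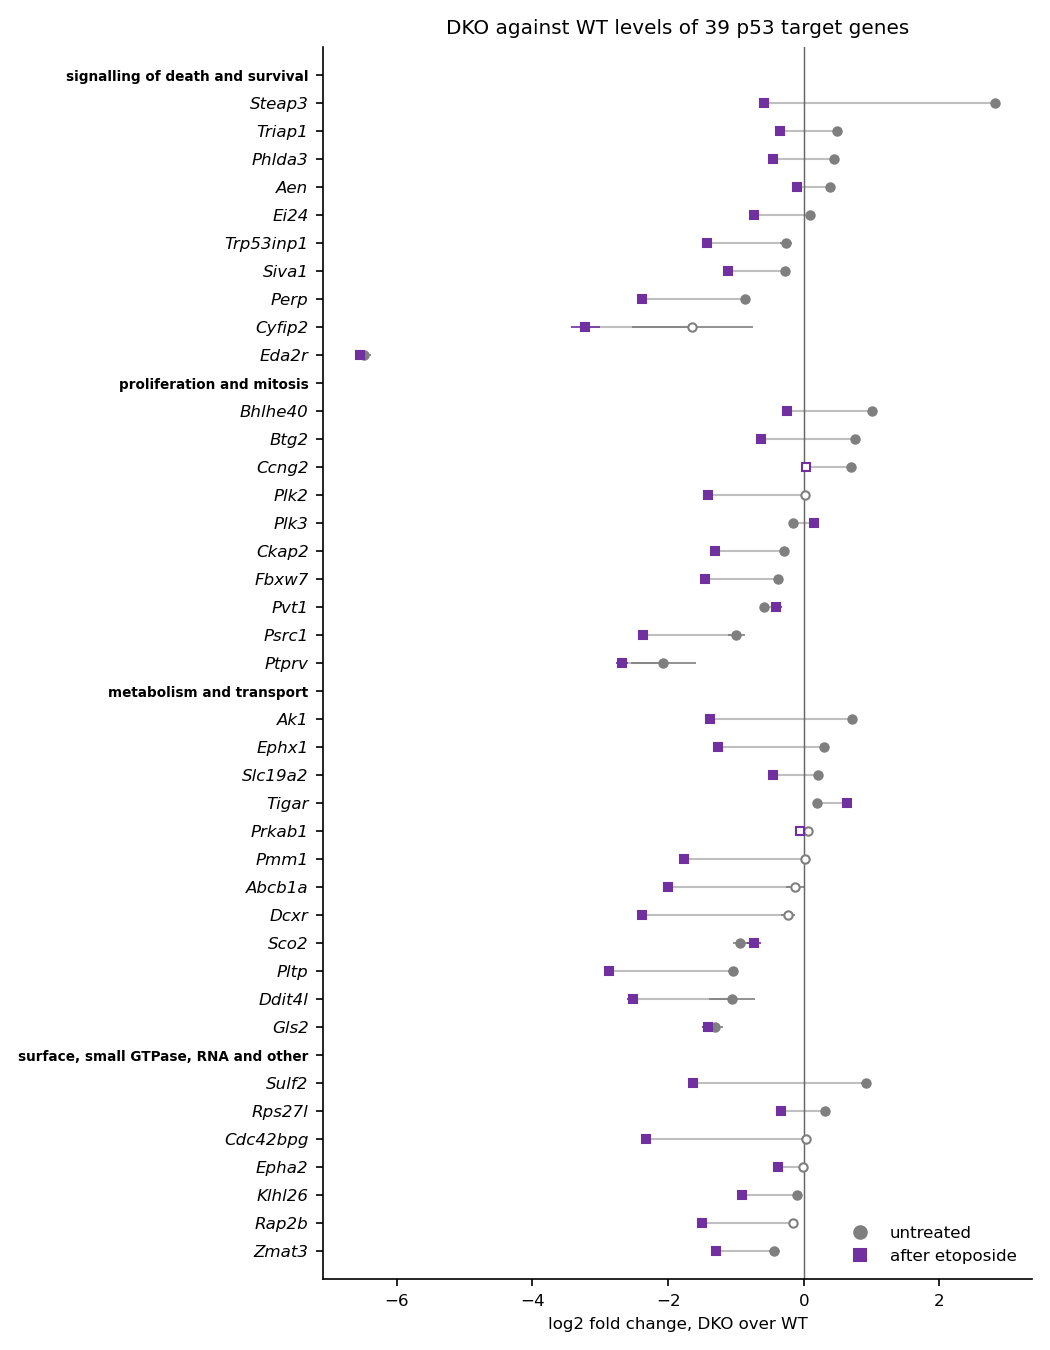
Log2 fold change (DKO over WT, ± SE, 3 libraries per group) of each p53 target gene untreated (grey circles) and after etoposide (purple squares), filled where the adjusted p is under 0.05. Untreated values fall on either side of 0, and after etoposide 36 of the 39 lie below 0.

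Targets that act in death and survival signalling all rose in WT MEFs (10 of 10), and 10 of 10 were lower in DKO than in WT MEFs after etoposide, against 42.3% and 36.6% of all genes. Trp53inp1, a nuclear stress protein that also serves autophagy, lies at chr4:11156431-11174379, plus strand (GRCm38). It stood at 12.8, 11.4 and 10.4 CPM in untreated WT and 11.4, 9.08 and 8.57 CPM in untreated DKO MEFs. Etoposide brought it to 704, 677 and 656 CPM in WT and 237, 254 and 263 CPM in DKO MEFs. The untreated groups overlap, with a call of lower in DKO MEFs (-0.26 ± 0.09, adjusted p = 0.0175) that is lost without untreated WT replicate 1 (adjusted p = 0.121) or untreated DKO replicate 2 (0.0863) or 3 (0.0932). Every treated library is far above them, and the treated DKO libraries are all below the treated WT libraries. The log2 fold change was 5.87 ± 0.08, adjusted p = 5.80e-19 in WT and 4.70 ± 0.08, adjusted p = 5.51e-18 in DKO MEFs, with an interaction of -1.17 ± 0.11, adjusted p = 1.04e-07.

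Eda2r, the receptor for ectodysplasin A2, lies at chrX:97333840-97377216, minus strand. Its levels were 32, 29.4 and 32.2 CPM in untreated WT and 141, 145 and 144 CPM in etoposide-treated WT MEFs. In DKO MEFs they were 0.361, 0.348 and 0.336 CPM untreated and 1.86, 1.31 and 1.53 CPM after etoposide. The DKO libraries were near the bottom of the range at both conditions, and no library of one genotype overlapped the other. DKO against WT gave -6.48 ± 0.10, adjusted p = 1.38e-18 untreated and -6.54 ± 0.07, adjusted p = 1.01e-19 after etoposide. The untreated DKO levels rest on 24, 32 and 20 counts, and the SE given here understates the error of such low counts. Etoposide raised the small DKO level too, by 2.13 ± 0.17 against 2.20 ± 0.05 in WT MEFs, and the interaction was -0.06 ± 0.21, adjusted p = 0.838.

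Steap3, a metalloreductase of the endosome that also takes part in p53-linked death, lies at chr1:120190757-120272705, minus strand. It was at 6.13, 7.39 and 6.93 CPM in untreated WT and at 46.7, 51.0 and 46.2 CPM in untreated DKO MEFs. After etoposide it reached 48.7, 48.1 and 49.2 CPM in WT and 34.3, 33.3 and 30.3 CPM in DKO MEFs. Untreated DKO libraries thus overlapped with treated WT libraries, and the treated DKO libraries were lower than both. The WT response was 2.84 ± 0.07, adjusted p = 1.90e-16 and the DKO response -0.56 ± 0.06, adjusted p = 1.14e-07. Its interaction of -3.40 ± 0.09, adjusted p = 1.37e-14 was the lowest among the 39 targets.

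Cyfip2, a subunit of the WAVE complex that drives actin assembly, had few counts. Untreated WT MEFs had 0.147, 0.292 and 0.0463 CPM and untreated DKO MEFs 0.135, 0 and 0.0336 CPM, from 9, 0 and 2 counts. Treated WT MEFs had 6.10, 6.33 and 5.83 CPM and treated DKO MEFs 0.789, 0.833 and 0.447 CPM. The treated groups do not overlap, and the untreated groups do. DKO against WT after etoposide was -3.22 ± 0.21, adjusted p = 1.09e-10, while the interaction (-1.58 ± 1.13, adjusted p = 0.256) was not past the threshold and its sign turns (0.21) without untreated DKO replicate 1. Perp, a tetraspan protein of desmosomes and death, rose from 48.6 ± 0.796 (SD) to 531 ± 18.2 CPM in WT MEFs and from 26.6 ± 1.46 to 102 ± 3.88 CPM in DKO MEFs, with an interaction of -1.51 ± 0.06, adjusted p = 1.40e-12. Phlda3, an inhibitor of Akt, rose by 2.49 ± 0.05 in WT and 1.58 ± 0.05 in DKO MEFs. Ei24, a protein of the endoplasmic reticulum, rose by 2.05 ± 0.04 and 1.23 ± 0.04. Its untreated DKO level differed little from WT (0.09 ± 0.04, adjusted p = 0.0416). That call is lost without any 1 of 7 libraries (adjusted p 0.0515 to 0.134), with no filter, a mean of at least 1 CPM or only the 6 libraries, and with library size alone, where the value is -0.026. Siva1, a pro-apoptotic adaptor, rose by 1.72 ± 0.05 and 0.87 ± 0.05, Triap1, a mitochondrial inhibitor of apoptosis, by 1.49 ± 0.06 and 0.64 ± 0.06, and the nuclease Aen by 1.12 ± 0.03 and 0.62 ± 0.03.

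Among targets that act on proliferation and mitosis, 7 of 10 rose and 3 fell in WT MEFs (42.3% and 37.2% of all genes), while 5 rose and 4 fell in DKO MEFs (43.7% and 31.5%). Ptprv, a receptor tyrosine phosphatase linked to arrest, is annotated in mouse as a processed transcript. It was at 0.283, 0.277 and 0.263 CPM in untreated WT and 0.0150, 0.0761 and 0.101 CPM in untreated DKO MEFs. Treated WT MEFs had 16.4, 16.0 and 15.6 CPM and treated DKO MEFs 2.67, 2.51 and 2.38 CPM. All 4 groups are apart. The rise was 5.85 ± 0.14, adjusted p = 8.39e-17 in WT and 5.24 ± 0.27, adjusted p = 5.94e-12 in DKO MEFs, and the interaction was -0.61 ± 0.60, adjusted p = 0.422. Psrc1, a microtubule-binding protein, rose from 5.78 to 112 CPM in WT and from 2.95 to 21.8 CPM in DKO MEFs (interaction -1.38 ± 0.14, adjusted p = 2.93e-07).

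Bhlhe40, a basic helix-loop-helix repressor, had the lowest response of the 39 in both genotypes. It was at 144, 141 and 130 CPM in untreated WT and 273, 286 and 279 CPM in untreated DKO MEFs. After etoposide it was at 29.3, 31.5 and 29.7 and 27.5, 25.8 and 23.0 CPM. Untreated DKO libraries were all above WT, and treated libraries of both genotypes were all below untreated ones. The fall was -2.20 ± 0.06, adjusted p = 3.38e-16 in WT and -3.46 ± 0.06, adjusted p = 2.74e-18 in DKO MEFs, with an interaction of -1.27 ± 0.08, adjusted p = 3.37e-10. Pvt1, a long non-coding RNA next to Myc, was at 34.1, 32.3 and 38.6 CPM in untreated WT and 21.6, 24.5 and 24.0 CPM in untreated DKO MEFs, and at 18.1, 15.7 and 16.5 and 13.6, 12.8 and 11.8 CPM after etoposide. It fell in both genotypes, by log2 fold changes of -1.06 ± 0.07 and -0.89 ± 0.08, and the interaction was 0.17 ± 0.11, adjusted p = 0.191.

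The polo-like kinases differed from each other. Plk3 was at 43.6, 44.1 and 41.4 CPM in untreated WT and 39, 39.5 and 36.9 CPM in untreated DKO MEFs. After etoposide it was at 23.4, 20.3 and 21.7 CPM in WT and 25.2, 24.2 and 23.4 CPM in DKO MEFs. The treated groups are close and barely apart, and its fall was -0.98 ± 0.05 in WT and -0.67 ± 0.05 in DKO MEFs (interaction 0.31 ± 0.08, adjusted p = 0.00210). The call of DKO above WT after etoposide (0.15 ± 0.06, adjusted p = 0.0214) is lost in 5 of the fits without a library, with adjusted p up to 0.165. Its untreated call (-0.16 ± 0.05, adjusted p = 0.0111) is lost without DKO replicate 3, at an adjusted p of 0.0565. Plk2 rose in WT MEFs from 470.3 ± 42.7 (SD) to 783 ± 28.3 CPM and fell in DKO MEFs from 476 ± 39.3 to 294 ± 16.3 CPM, with an interaction of -1.43 ± 0.09, adjusted p = 5.65e-10.

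Ccng2, an atypical cyclin of arrested cells, was at 11.8, 12.1 and 11.5 CPM in untreated WT and 19.5, 20.2 and 17.5 CPM in untreated DKO MEFs, and at 34.8, 36.7 and 36.0 and 36.2, 37.6 and 35.9 CPM after etoposide. The treated groups overlap (0.03 ± 0.05, adjusted p = 0.623), and the untreated groups do not (0.69 ± 0.06, adjusted p = 8.66e-09). Btg2, an antiproliferative partner of the CCR4-NOT complex, rose by 2.35 ± 0.06 in WT and 0.95 ± 0.06 in DKO MEFs. Ckap2, a protein of the spindle, rose by 1.99 ± 0.05 and 0.97 ± 0.05. Fbxw7, the substrate-binding part of a ubiquitin ligase, rose in WT MEFs by 0.98 ± 0.04. In DKO MEFs its change was -0.09 ± 0.04, adjusted p = 0.0588, a value of 0.18 and called higher with library size alone. It was called lower without any 1 of 5 libraries (adjusted p 0.0237 to 0.0425), and with DESeq2 size factors, the DESeq2 Wald test, no filter, only the 6 libraries, and the legacy fit.

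In metabolism and transport 10 of 12 targets rose in WT MEFs, 9 in DKO MEFs, and 10 were lower in DKO than WT MEFs after etoposide, where all genes had shares of 42.3%, 43.7% and 36.6%. Ddit4l, an inhibitor of mTORC1, had the highest WT response of the 39 and lies at chr3:137621612-137628333, plus strand. It was at 0.836, 0.415 and 0.448 CPM in untreated WT and 0.226, 0.228 and 0.419 CPM in untreated DKO MEFs. Treated WT MEFs had 60.0, 60.2 and 60.7 CPM and treated DKO MEFs 9.63, 11.8 and 9.99 CPM. The untreated groups overlap, with a call of lower in DKO MEFs (-1.06 ± 0.34, adjusted p = 0.0104) that is lost without untreated WT replicate 1 (-0.62, adjusted p = 0.140) or untreated DKO replicate 2 (-0.89, adjusted p = 0.0634). The treated groups are far apart. Its log2 fold change was 6.68 ± 0.13, adjusted p = 1.41e-17 in WT and 5.22 ± 0.18, adjusted p = 3.70e-14 in DKO MEFs, with an interaction of -1.46 ± 0.38, adjusted p = 0.00368.

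Pltp, which transfers phospholipids between lipoproteins, shares 495 of its exon bases with Ctsa on the other strand, so its counts are uncertain. Its levels were 18.7, 15.9 and 15.3 CPM in untreated WT and 7.73, 8.34 and 8.24 CPM in untreated DKO MEFs. After etoposide they were 116, 110.5 and 120.4 CPM in WT and 16.8, 16.0 and 14.9 CPM in DKO MEFs. Treated DKO libraries overlap with untreated WT libraries. DKO against WT after etoposide was -2.87 ± 0.07, adjusted p = 2.07e-16. Dcxr, the L-xylulose reductase, rose from 4.46 ± 0.198 (SD) to 128 ± 9.03 CPM in WT and from 3.75 ± 0.524 to 24.5 ± 0.997 CPM in DKO MEFs (interaction -2.16 ± 0.12, adjusted p = 1.06e-10). The adenylate kinase Ak1 started higher in DKO MEFs (0.72 ± 0.04) and rose by 0.43 ± 0.04, against 2.53 ± 0.04 in WT MEFs.

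Tigar, a fructose-2,6-bisphosphatase that turns sugar away from glycolysis, was at 18.9, 19.8 and 17.8 CPM in untreated WT and 21.8, 22.0 and 20.5 CPM in untreated DKO MEFs. After etoposide it was at 14.1, 15.0 and 14.4 CPM in WT and 21.6, 23.3 and 22.3 CPM in DKO MEFs. WT libraries were lower after etoposide than before, and DKO libraries overlapped. The WT change was -0.38 ± 0.06, adjusted p = 1.18e-05, the DKO change 0.06 ± 0.06, adjusted p = 0.300 (0.34 and called higher with library size alone), and the interaction 0.44 ± 0.08, adjusted p = 0.000147, the highest of the 39. Sco2, a copper chaperone for cytochrome c oxidase, shares 856 exon bases with Tymp on its own strand and 829 with Ncaph2 on the other, so its counts are uncertain. It was at 8.86, 8.90 and 8.71 CPM in untreated WT and 4.44, 5.15 and 4.08 CPM in untreated DKO MEFs, and at 8.26, 8.46 and 9.16 and 4.23, 5.57 and 5.44 CPM after etoposide. It was lower in DKO MEFs at both conditions (-0.94 ± 0.10 and -0.73 ± 0.10), with no call for etoposide in WT (-0.04 ± 0.09, adjusted p = 0.735) or DKO MEFs (0.17 ± 0.11, adjusted p = 0.185), the latter 0.44 and called higher with library size alone.

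The other metabolic and transport targets are described by their changes. The thiamine transporter Slc19a2 rose by 2.87 ± 0.04 in WT and 2.21 ± 0.04 in DKO MEFs. Pmm1, a phosphomannomutase, rose by 2.46 ± 0.04 and 0.69 ± 0.04 from untreated levels that did not differ by the test (0.01 ± 0.04, adjusted p = 0.801), a change of -0.11 with library size alone. The epoxide hydrolase Ephx1 rose by 1.94 ± 0.05 and 0.38 ± 0.05, and the efflux pump Abcb1a by 3.64 ± 0.09 and 1.77 ± 0.11. Gls2, a mitochondrial glutaminase, was lower in DKO MEFs before (-1.31 ± 0.13) and after etoposide (-1.40 ± 0.10), and rose by 1.09 ± 0.10 in WT and 1.00 ± 0.13 in DKO MEFs (interaction -0.09 ± 0.17, adjusted p = 0.677). Prkab1, the beta 1 subunit of AMP-activated kinase, changed by 0.17 ± 0.04 in WT and 0.06 ± 0.04 in DKO MEFs, the latter 0.33 and called higher with library size alone. Its interaction is called under 3 alternatives and without either of 2 libraries.

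The remaining targets are surface proteins, a small GTPase, RNA-linked proteins and others. Of these, 6 of 7 rose in WT MEFs and 7 of 7 were lower in DKO MEFs after etoposide (42.3% and 36.6% of all genes). Sulf2, which trims sulfate groups from heparan sulfate, lies at chr2:166073089-166155663, minus strand. It was at 7.72, 10.2 and 8.93 CPM in untreated WT and 17.0, 16.8 and 16.5 CPM in untreated DKO MEFs. Treated WT MEFs had 89.5, 84.6 and 86.6 CPM and treated DKO MEFs 28.9, 28.4 and 26.8 CPM. The DKO libraries are above WT without etoposide and below it after. The responses were 3.29 ± 0.07 in WT and 0.74 ± 0.07 in DKO MEFs, and the interaction was -2.55 ± 0.09, adjusted p = 6.25e-13. Cdc42bpg, a kinase that acts on the actin skeleton, was at 14.3, 14.6 and 14.2 CPM in untreated WT and 13.8, 14.5 and 15.8 CPM in untreated DKO MEFs, which overlap. After etoposide it was at 225, 204 and 199 and 44.8, 43.7 and 37.7 CPM, which do not. Its interaction was -2.35 ± 0.10, adjusted p = 1.84e-12.

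Zmat3, a zinc finger protein that binds RNA, rose by 2.42 ± 0.08 in WT and 1.56 ± 0.08 in DKO MEFs. Rps27l, a ribosomal-like protein, rose by 1.23 ± 0.05 and 0.58 ± 0.05. The kelch-like protein Klhl26 rose by 1.02 ± 0.04 and 0.21 ± 0.04. Rap2b, a Ras-family GTPase, went from 55.8 to 137 CPM in WT MEFs, and its DKO groups overlap (-0.04 ± 0.07, adjusted p = 0.564, a value of 0.23 with library size alone). Rap2b shares 3962 of its exon bases with transcripts on the other strand, and its counts are uncertain. Epha2, an ephrin receptor, fell in both genotypes, by log2 fold changes of -0.49 ± 0.03 in WT and -0.85 ± 0.03 in DKO MEFs, from untreated groups that overlap.

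**Figure D3:**
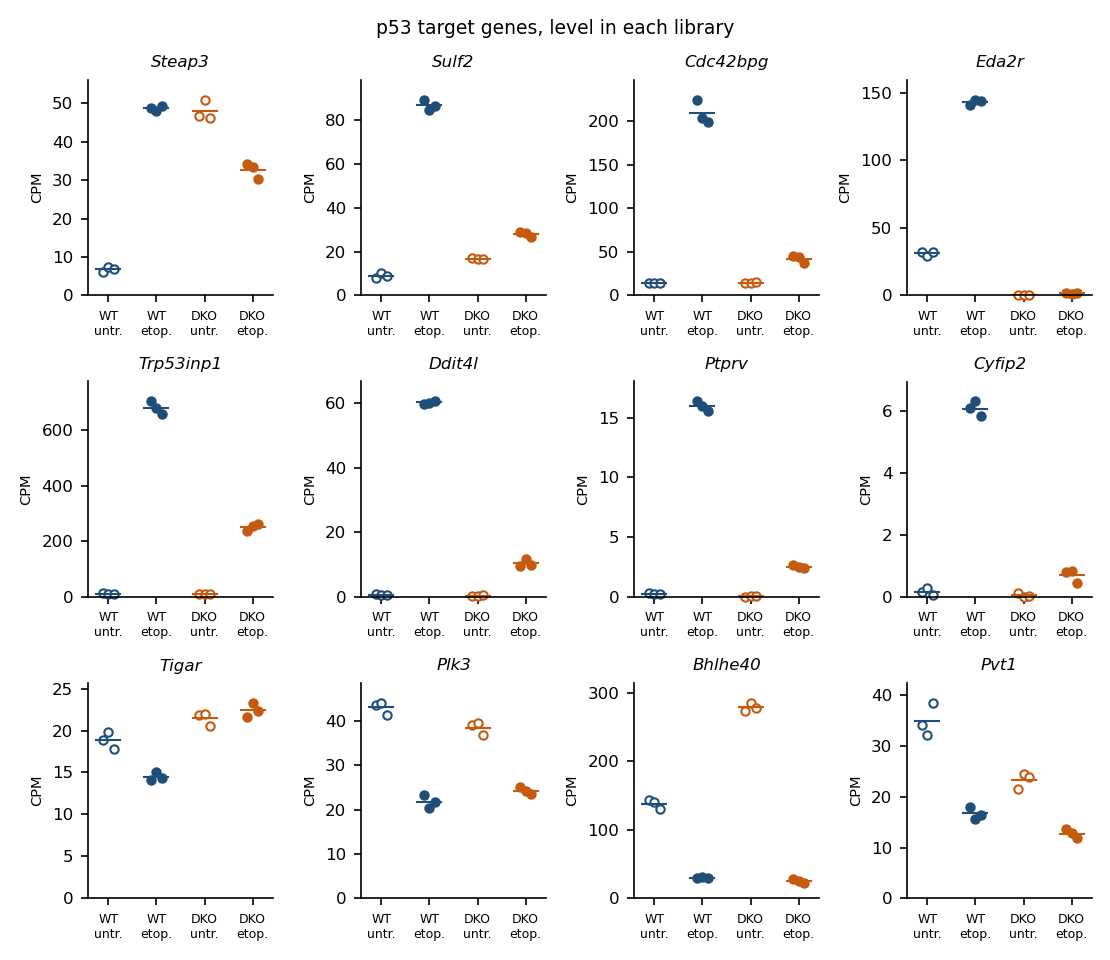
CPM in each library (dots, open untreated and filled after etoposide) with the group mean (bar) for 12 p53 target genes in WT (blue) and DKO (orange) MEFs. Eda2r is near 0 in every DKO library, and Steap3 moves in opposite directions in WT and DKO MEFs.

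Per kb of exon, Rps27l was the most abundant of the 39 in untreated WT MEFs (130.4 CPM per kb) and after etoposide (305 CPM per kb). Perp rose to 272 CPM per kb in treated WT MEFs, next in that order, and Cyfip2 was the least abundant (0.857 CPM per kb). The exons of the targets had a median summed length of 3658 bases, and protein-coding genes in the annotation 3498 bases. Besides Sco2, Rap2b and Pltp, exon bases shared with other genes make counts uncertain for Abcb1a (553 bases), Ptprv (345), Ei24 (324) and Pvt1 (341 on its own strand and 109 on the other). Ephx1, Plk3, Tigar, Sulf2, Bhlhe40 and Gls2 share 72 to 154 bases each.

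Of 19 other well-known p53 targets, 17 rose in WT and 15 in DKO MEFs, and 17 were lower in DKO MEFs after etoposide, against 42.3%, 43.7% and 36.6% of all genes. The interaction was lower for 13 and higher for 1 (24.4% and 29.6% of all genes), with a median of -0.48, against -1.02 for the 39. Cdkn1a, which encodes the arrest protein p21, was at 71.5, 65.6 and 60.1 CPM in untreated WT and 38.5, 39.8 and 40.7 CPM in untreated DKO MEFs, and at 498, 511 and 510 and 242, 254 and 227 CPM after etoposide. No groups overlap, and its interaction was -0.34 ± 0.07, adjusted p = 0.000826. Pmaip1, a BH3-only death protein, was at 32.4, 33.5 and 27.1 CPM in untreated WT, 214, 214 and 227 in untreated DKO, 279, 293 and 271 in treated WT and 215, 220.3 and 223 CPM in treated DKO MEFs. Like Steap3 it was already high in untreated DKO MEFs, with the lowest interaction of its list (-3.17 ± 0.08, adjusted p = 9.95e-15). Rrm2b, a ribonucleotide reductase subunit, had the highest (0.23 ± 0.07, adjusted p = 0.00986).

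Of 12 genes for p53 and its regulators, the interaction was lower for 5 and higher for 5, against 24.4% and 29.6% of all genes. Trp53 itself was at 146, 135 and 138 CPM in untreated WT and 112, 121 and 117 CPM in untreated DKO MEFs, and at 159, 168 and 167 and 142, 133 and 131 CPM after etoposide. Its DKO level was lower before (-0.26 ± 0.04, adjusted p = 2.83e-05) and after etoposide (-0.28 ± 0.04, adjusted p = 8.78e-06), with an interaction of -0.02 ± 0.06, adjusted p = 0.786. Mdm2, the ligase that p53 also induces, was at 126, 122 and 115 CPM in untreated WT and 111, 109 and 106 CPM in untreated DKO MEFs. It reached 1814, 1897 and 1791 CPM in treated WT and 586, 595 and 585 CPM in treated DKO MEFs, and its interaction of -1.48 ± 0.05, adjusted p = 3.30e-13 was the lowest of the list. The damage kinase Atm had the highest (0.49 ± 0.06, adjusted p = 4.83e-06).

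**Figure D4:**
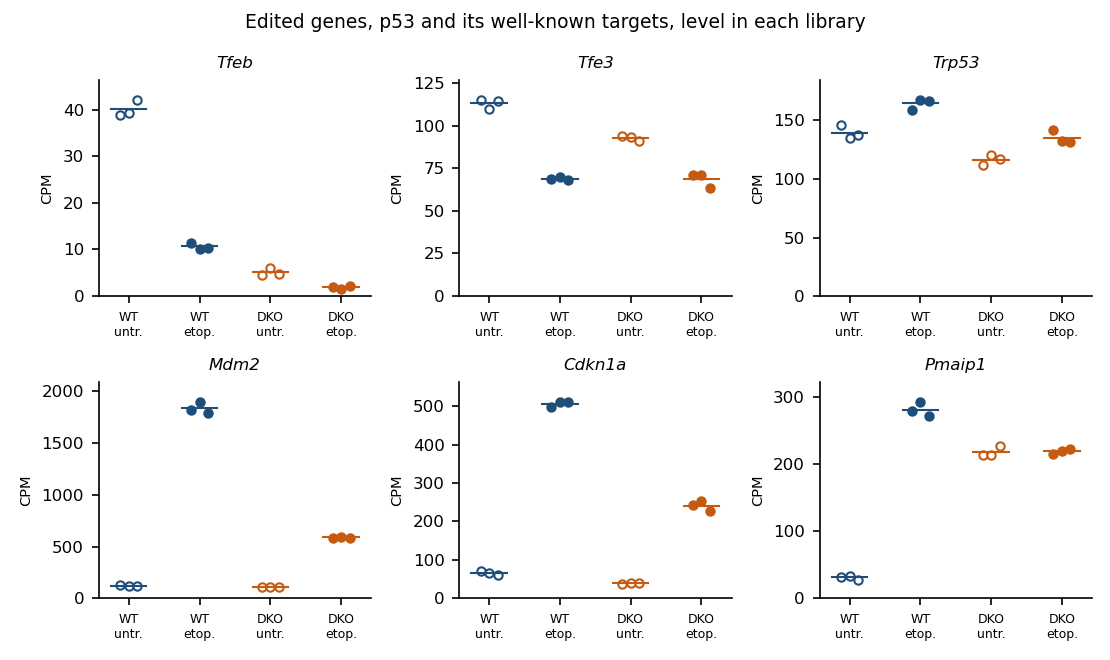
CPM in each library (dots, open untreated and filled after etoposide) with the group mean (bar) for the edited genes, Trp53 and p53 targets outside the 39. Mdm2 and Cdkn1a are lower in treated DKO than in treated WT libraries, and Tfe3 overlaps between genotypes after etoposide.

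The promoters of the 39 are shown with p53 motifs. The 39 were chosen as known direct p53 targets, and that choice can by itself raise the share with a p53 site. RefSeq promoter windows on GRCm38.p6, 250 bases before to 50 after a start, were matched for 31 of the 39. The other 8 are Trp53inp1, Zmat3, Perp, Ptprv, Cdc42bpg, Bhlhe40, Pvt1 and Gls2. A p53 full site was counted where a pair of p53 consensus decamers, 0 or 1 base apart, had at most 3 mismatches and none at the C and G of each core, on either strand. It was in the windows of 7 of the 31 genes (22.6%) and of 3.27% of all 27025 genes with a window. By window these shares were 18.2% and 2.82%. With at most 2 mismatches the shares of genes fall to 6.45% (2 genes) and 0.807%. A p53 decamer with no mismatch was in 22.6% of the 31 and 9.55% of all genes. CACGTG, a palindrome read by basic helix-loop-helix factors such as TFEB and TFE3, was in 9.68% against 8.09%. The longer TCACGTGA, which holds CACGTG, was in none of the 31 and in 1.12% of all genes. TTTGAA, in either direction, was in 12.9% against 20.2%. A match is a description of letters, not of binding. The windows of 4 genes with a full site are given 5' to 3' with the site in capitals. They were chosen to hold genes that rose in WT MEFs (Rps27l, Ckap2 and Dcxr) and 1 that fell (Tigar). Pltp, Aen and Siva1 also have a full site and rose in WT MEFs, and their windows are not shown. Rps27l (chr9:66946163-66946462 (plus strand)) has 1 mismatch and Ckap2 (chr8:22185770-22186069 (minus strand)) has 2. Dcxr (chr11:120727235-120727534 (minus strand)) and Tigar (chr6:127109503-127109802 (minus strand)) have 3 each, and the site of Dcxr holds a spacer of 1 base. The Rps27l window surrounds a start inside the gene, which begins at chr9:66946086 in the annotation. Its site thus lies within the annotated gene and not upstream of it.
Rps27l: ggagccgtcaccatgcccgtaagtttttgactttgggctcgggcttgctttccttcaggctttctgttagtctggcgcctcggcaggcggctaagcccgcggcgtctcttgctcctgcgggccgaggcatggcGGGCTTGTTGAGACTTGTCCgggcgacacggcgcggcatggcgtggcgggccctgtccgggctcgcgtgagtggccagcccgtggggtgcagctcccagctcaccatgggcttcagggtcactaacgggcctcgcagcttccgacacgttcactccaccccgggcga
Ckap2: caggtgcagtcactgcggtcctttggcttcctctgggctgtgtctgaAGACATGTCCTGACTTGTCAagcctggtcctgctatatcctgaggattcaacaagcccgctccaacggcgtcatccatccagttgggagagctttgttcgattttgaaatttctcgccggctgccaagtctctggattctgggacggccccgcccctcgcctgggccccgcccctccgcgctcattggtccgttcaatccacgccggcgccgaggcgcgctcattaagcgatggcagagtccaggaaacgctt
Dcxr: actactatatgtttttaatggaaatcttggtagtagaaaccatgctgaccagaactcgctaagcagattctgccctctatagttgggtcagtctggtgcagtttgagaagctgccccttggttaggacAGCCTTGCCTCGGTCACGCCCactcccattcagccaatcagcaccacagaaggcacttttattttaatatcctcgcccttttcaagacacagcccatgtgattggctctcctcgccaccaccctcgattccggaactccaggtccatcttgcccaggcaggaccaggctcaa
Tigar: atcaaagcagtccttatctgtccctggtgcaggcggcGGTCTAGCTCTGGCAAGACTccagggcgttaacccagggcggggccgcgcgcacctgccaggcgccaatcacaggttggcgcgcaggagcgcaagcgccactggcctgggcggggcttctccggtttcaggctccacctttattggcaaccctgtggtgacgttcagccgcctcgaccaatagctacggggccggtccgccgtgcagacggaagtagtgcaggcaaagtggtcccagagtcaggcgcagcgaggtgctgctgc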

How the data were processed

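RNA from WT and DKO MEFs, untreated or etoposide-treated, was sequenced in 12 libraries. The authors deposited whole counts per gene symbol, without normalization. Per the paper's methods, libraries were stranded and ribosomal RNA was depleted. Reads were trimmed with Cutadapt where required and aligned with HISAT2, and uniquely aligned pairs were counted with HTSeq on GENCODE genes. The submitters' processing notes name mm10, HISAT2 and featureCounts, while the table's 5 summary lines are named as HTSeq names them. Versions and the strand setting are not given in the sources used here. The summary lines were left out. Genes held 53.4 to 63.1% of a library's total with those lines, while 20.2 to 27.3% lay outside annotated features, 15.9 to 20.5% had no unique alignment and 0.428 to 0.513% fell on several genes.

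Counts were fitted in R 4.3.3 with edgeR 4.0.16 (filterByExpr by group, TMM, glmQLFit with legacy = FALSE, glmQLFTest) with 4 groups and no block. P-values were adjusted by the Benjamini-Hochberg method over all 15220 genes tested. Each standard error is the size of the log2 fold change over the square root of F. The design named the quasi-likelihood fit but not this setting, whose default in this version is the legacy fit. It was set after the counts of called genes from both versions had been seen, to match an earlier analysis of these data, and the legacy fit is given as an added alternative. Fits were checked on simulated counts.

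Alternatives were DESeq2 1.42.0, limma-trend (limma 3.58.1) with robust estimates, DESeq2 size factors, library size alone, no filter, a mean of at least 1 CPM, the replicate block, only the 6 libraries of a comparison, robust estimates, each library left out, and 2 mismatches for the p53 full site. The targets and lists were chosen with earlier results of these data known. Values in every library are given for the 3 targets with the highest and the 3 with the lowest log2 fold change in etoposide in WT MEFs, DKO against WT untreated and after etoposide, and the interaction, and for Tfeb, Tfe3, Trp53, Mdm2 and Cdkn1a. From the lists of other p53 targets and of p53 and its regulators, the genes with the highest and the lowest interaction are named. Coordinates and exon lengths are from GENCODE M21 on GRCm38, matched by symbol for all 39, and promoter sequences are from RefSeq.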

Additional observations from a re-analysis of the deposited data

Results flagged for a closer look

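Results are listed here because the response to etoposide differed between WT and DKO MEFs by the interaction test of the edgeR fit (adjusted p under 0.05). Values are interactions on the log2 scale, the DKO response minus the WT response. Groups of 3 libraries were not tested for single libraries that stand apart. In death and survival signalling the interaction was below 0 for Steap3 (-3.40), Perp (-1.51), Trp53inp1 (-1.17), Phlda3 (-0.91), Triap1 (-0.85), Siva1 (-0.84), Ei24 (-0.83) and Aen (-0.49). Among targets acting on proliferation and mitosis the interaction was below 0 for Plk2 (-1.43), Btg2 (-1.40), Psrc1 (-1.38), Bhlhe40 (-1.27), Fbxw7 (-1.07), Ckap2 (-1.02) and Ccng2 (-0.67), and above 0 for Plk3 (0.31). In metabolism and transport the interaction was below 0 for Dcxr (-2.16), Ak1 (-2.10), Abcb1a (-1.87), Pltp (-1.83), Pmm1 (-1.78), Ephx1 (-1.55), Ddit4l (-1.46) and Slc19a2 (-0.65), and above 0 for Tigar (0.44). Among surface, GTPase, RNA-linked and other targets the interaction was below 0 for Sulf2 (-2.55), Cdc42bpg (-2.35), Rap2b (-1.34), Zmat3 (-0.86), Klhl26 (-0.81), Rps27l (-0.65) and Epha2 (-0.36). The interaction of Eda2r, Ptprv, Prkab1, Cyfip2, Pvt1, Gls2 and Sco2 did not pass the threshold.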

How the results depend on the processing

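Counts of higher and lower targets in the 5 comparisons were within 1.5 times of the reported count under each alternative, except the count of targets higher in DKO than WT MEFs after etoposide. That count of 2 was 1 with DESeq2 size factors, the DESeq2 Wald test, no filter, and a mean of at least 1 CPM, since Plk3 lost its call. Without 1 library it was 1 to 2. With each library left out in turn, targets higher and lower ranged over 33 to 33 and 5 to 5 for etoposide in WT MEFs, 28 to 28 and 6 to 7 in DKO MEFs, 13 to 14 and 13 to 18 for untreated DKO against WT MEFs, 35 to 35 lower after etoposide, and 2 to 2 and 30 to 31 for the interaction. No call for etoposide in WT MEFs changed under any alternative. Some call changed for 5 targets in the DKO response, 12 in untreated DKO against WT MEFs, 2 after etoposide and 2 in the interaction.

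Without 1 library, the untreated calls of DKO against WT MEFs were lost for Trp53inp1 (3 libraries, adjusted p 0.0863 to 0.121), Ei24 (7, 0.0515 to 0.134), Klhl26 (5, 0.0517 to 0.192), Ddit4l (2, 0.0634 to 0.140) and Plk3 (1, 0.0565). That of Trp53inp1 was also lost with limma-trend (0.0556) and robust quasi-likelihood (0.0672). The untreated call of Klhl26 was also lost with DESeq2 size factors (0.0504). Calls were gained for Rap2b (4, 0.0230 to 0.0357), Dcxr (3, 0.00666 to 0.0491) and Cyfip2 (1, 0.0267). Dcxr also gained this call with the DESeq2 Wald test, limma-trend, a mean of at least 1 CPM, the replicate block and robust quasi-likelihood. Rap2b gained it with the DESeq2 Wald test, no filter, a mean of at least 1 CPM, the replicate block and only the 6 libraries. The interaction of Prkab1 gained a call without either of 2 libraries (0.0313 to 0.0410), and also with DESeq2 size factors (adjusted p 0.0100), the DESeq2 Wald test (0.00532) and a mean of at least 1 CPM (0.0122). Under these 3 alternatives Prkab1 was also called lower in DKO than WT MEFs after etoposide, and with the last it was called higher in the DKO response. The interaction of Pvt1 gained a call with library size alone (0.0393).

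Scaling by library size alone moved the median of all genes by 0.17 (etoposide in WT MEFs), 0.27 (in DKO MEFs), -0.12 (untreated DKO against WT) and 0.10 (interaction) on the log2 scale. The share of higher among called genes went from 53.2 to 64.0%, 58.1 to 75.6%, 49.9 to 38.4% and 54.8 to 65.2% in these comparisons. Under it the sign turned for Rap2b (0.23) and Fbxw7 (0.18) in the DKO response, and for Ei24 (-0.026) and Pmm1 (-0.11) in untreated DKO against WT MEFs. Of these, Ei24 lost its call and the others gained one. Calls were also gained for Tigar (0.34), Prkab1 (0.33) and Sco2 (0.44) in the DKO response and for Dcxr, Epha2 and Rap2b in untreated DKO against WT MEFs, where those of Tigar and Slc19a2 were lost. DESeq2 size factors also moved the shares of all genes. The share of higher among called genes went from 50.6 to 45.4% for DKO against WT MEFs after etoposide and from 54.8 to 47.5% for the interaction. The interaction was then higher for 3797 genes and lower for 4192, in place of 4507 and 3719, and its median over the 39 targets was -1.09. With at most 2 mismatches, 6.45% of the 31 targets with a window had a p53 full site in place of 22.6%, and 0.807% of all genes with a window in place of 3.27%. The legacy quasi-likelihood fit, added after the data were seen, gave a call to Fbxw7 in the DKO response and to Dcxr untreated, and moved no other call.

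Replicate numbers share only a name across groups. Deviations of same-numbered libraries correlated at -0.03 to 0.04 over 18 pairs, and those of other pairs at -0.05 to 0.05. With the replicate block, 33 targets were higher and 5 lower for etoposide in WT MEFs, 28 and 6 in DKO MEFs, 14 and 18 for untreated DKO against WT MEFs, 2 and 35 after etoposide, and 2 and 30 for the interaction. Cyfip2 and Ptprv have too few untreated counts for a precise interaction, as their standard errors of 1.13 and 0.60 show. Without 1 library these interactions ran from -2.37 to 0.21 and from -1.03 to -0.27.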
